A study of Homo sapiens with 12 samples.

Results

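The human tissue kallikreins (KLK genes) encode secreted serine proteases, and 10 of them, KLK1, KLK2, KLK3, KLK4, KLK5, KLK6, KLK10, KLK11, KLK14 and KLK15, were followed here in prostate cancer cells treated with a glucocorticoid. They were taken by their gene symbol in the array platform's annotation, and they are 10 of 17687 genes with a named row on the array. Each of the 10 had a single row. Another 5 KLK genes with a named row, KLK7, KLK8, KLK9, KLK12 and KLK13, serve as the nearest comparison.

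Kallikreins are made as inactive precursors that other proteases, often other kallikreins, cut to activate. In the prostate, luminal epithelial cells secrete KLK3 (prostate-specific antigen), KLK2 and KLK4 under androgen control, and KLK3 liquefies semen by cutting the semenogelins. The glucocorticoid receptor and several other steroid receptors recognise closely related DNA elements, and KLK3 is widely read as a reporter of steroid signalling.

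RNA was hybridised to 12 arrays in 4 groups of 3. Enza_Dex and Enza_Ctrl are LNCaPabl-Enza cells treated for 24 h with 100 nM dexamethasone, a synthetic glucocorticoid, or with its solvent DMSO. Abi_Dex and Abi_Ctrl are LNCaPabl-Abi cells treated in the same way. Both sublines take their name from LNCaP, a long-established line of human prostate cancer cells. The labels do not say what Abi and Enza mean, whether a subline is a single clone, or whether the 3 arrays of a group came from separate cultures. The p-values below therefore measure the spread between arrays, which may be partly technical.

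Array Enza_Ctrl replicate 2 stood apart from the rest. Its median Pearson correlation with the other arrays was 0.855, against 0.986 to 0.990 for each of the other 11. On that array 6 of the 10 kallikreins (KLK1, KLK5, KLK6, KLK10, KLK11 and KLK15) lay above all other 11 arrays, as did 35.3% of all genes, while another 40.5% of genes lay below all of them. Results are therefore given with 12 arrays and with the 11 arrays that remain without it, as deposited log2 values. A difference that does not involve Enza_Ctrl has the same size in both, with another error. The background control rows averaged 5.50 on Enza_Ctrl replicate 2 and 4.50 to 4.60 on the other 11 arrays. Luminal markers (6 of 7 listed measured) averaged 11.7 to 12.8 per array over the 11 arrays, basal markers (4 of 6) 5.55 to 6.09, neuroendocrine markers (7 of 8) 4.11 to 4.87, fibroblast markers (8 of 9) 4.21 to 4.59, immune markers (7 of 8) 4.35 to 4.80 and endothelial markers (6 of 6) 3.96 to 4.28. The cells on these 11 arrays thus carried the luminal markers of their label. On Enza_Ctrl replicate 2 the luminal markers averaged 11.03, with 1 of 6 below 5, the basal markers 6.82, the neuroendocrine 4.24, the fibroblast 5.87, the immune 5.66 and the endothelial 5.11. The part of these levels in the results with 12 arrays was not tested.

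**Figure D1:**
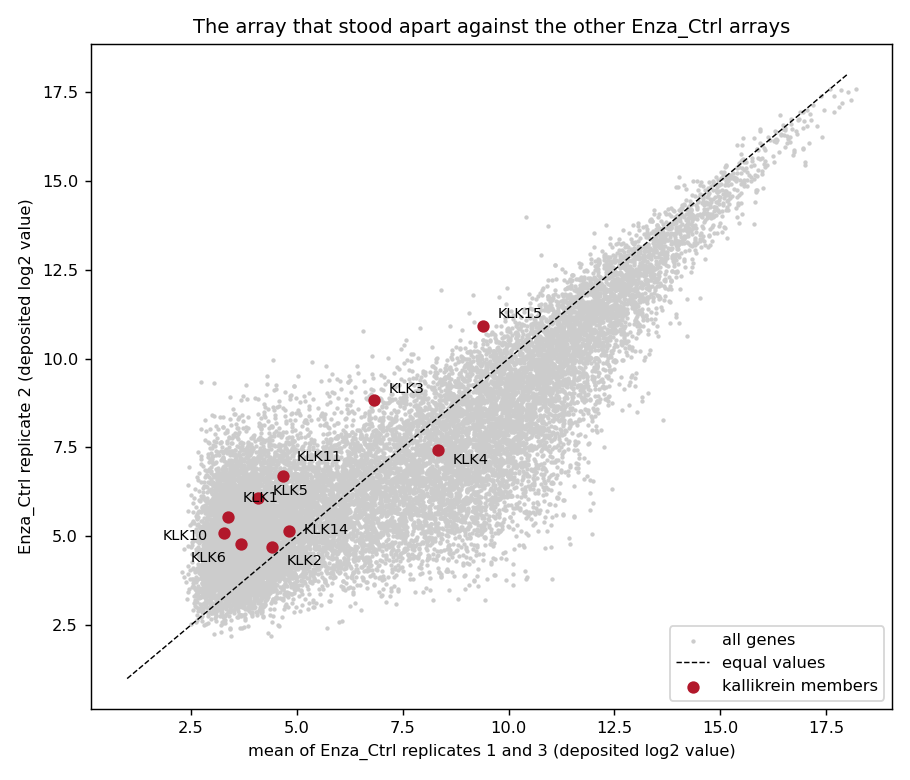
Deposited log2 values of every gene on Enza_Ctrl replicate 2 (vertical axis) against the mean of Enza_Ctrl replicates 1 and 3 (horizontal axis), with the 10 kallikreins as large points and equal values as the dashed line. KLK4 lies below the line and KLK3, KLK15, KLK1, KLK5, KLK10 and KLK11 lie well above it.

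The KLK genes form a single cluster on chromosome 19. In the RefSeq gene table for GRCh38.p14 the 10 kallikreins span chr19:50819146-51084210, a stretch of 265 kb, in the order KLK1, KLK15, KLK3, KLK2, KLK4, KLK5, KLK6, KLK10, KLK11, KLK14. KLK3 lies at chr19:50854915-50860764, KLK2 at chr19:50873439-50880567 and KLK4 at chr19:50906351-50911395, next to one another apart from the pseudogene KLKP1. These 3 neighbours carry the results below, so their upstream sequences are shown.

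The steroid response element searched was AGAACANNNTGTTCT on both strands, with 12 defined letters and a spacer of 3. The 250 bases before the start of KLK3, KLK2 and KLK4, from RefSeq GRCh38.p14, are printed 5′ to 3′ on the strand of the gene. Capitals mark the 15-letter window closest to the element. Their positions are chr19:50854665-50854914 (plus strand) for KLK3, chr19:50873189-50873438 (plus strand) for KLK2 and chr19:50911396-50911645 (minus strand) for the outermost of the annotated starts of KLK4.
KLK3: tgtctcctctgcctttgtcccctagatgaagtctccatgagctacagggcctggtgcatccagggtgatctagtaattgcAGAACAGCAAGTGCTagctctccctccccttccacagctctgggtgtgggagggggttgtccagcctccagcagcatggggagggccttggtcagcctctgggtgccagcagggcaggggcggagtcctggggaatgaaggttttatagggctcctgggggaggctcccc
KLK2: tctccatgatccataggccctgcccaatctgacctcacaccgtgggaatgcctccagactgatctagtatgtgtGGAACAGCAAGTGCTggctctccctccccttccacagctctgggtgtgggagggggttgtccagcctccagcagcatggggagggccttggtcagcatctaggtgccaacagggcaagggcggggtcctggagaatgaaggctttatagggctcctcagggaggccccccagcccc
KLK4: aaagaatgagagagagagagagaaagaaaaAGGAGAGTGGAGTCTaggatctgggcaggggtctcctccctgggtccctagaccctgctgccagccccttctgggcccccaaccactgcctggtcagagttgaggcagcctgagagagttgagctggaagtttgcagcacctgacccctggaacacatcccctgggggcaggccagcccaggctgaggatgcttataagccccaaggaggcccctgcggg

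In KLK3 the closest window, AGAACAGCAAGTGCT, lies at positions -170 to -156 from the start and differs from the element at 2 of 12 letters. Over 35116 promoter entries of the same length, 1.18% held a window with 2 mismatches or fewer. In KLK2 the closest window, GGAACAGCAAGTGCT, lies at positions -176 to -162 and has 3 mismatches, as 9.17% of entries do or better. The windows of the 2 genes differ by A1G, counted from the first base of the KLK3 window. The KLK4 sequence came no closer than 5 mismatches. Of the 10 kallikreins, 9 had promoter entries, 15 in all, and outside KLK2 and KLK3 none came closer than 4 mismatches. The shorter motif AGAACA, searched also as TGTTCT, is contained in the full element. It was found in 12.4% of entries and, among the kallikreins, in that of KLK3 alone. Upstream of their starts, KLK2 and KLK3 matched at 79.3% of aligned positions, against 49.6% for KLK4 and KLK3 and 50.2% for KLK4 and KLK2. These matches describe the letters in this window and say nothing about binding.

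Dexamethasone in LNCaPabl-Abi raised KLK4, and the 2 genes beside it, KLK2 and KLK3, had higher values in every treated array than in any DMSO array without passing the test. The other 7 kallikreins lay within 0.25 of no difference on the log2 scale. The comparison asks how glucocorticoid treatment alters these protease genes in this line. KLK4 is known for degrading enamel matrix in developing teeth and is also secreted by the prostate. KLK2 is a trypsin-like protease that can activate the precursor of KLK3, which itself cuts like chymotrypsin.

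KLK4 read 9.97, 10.58 and 11.09 in replicates 1, 2 and 3 of Abi_Dex, against 5.87, 5.14 and 6.44 in those of Abi_Ctrl. The groups are far apart, and the lowest treated array exceeds the highest DMSO array by more than either group's whole range. The means were 10.54 ± 0.56 in Abi_Dex and 5.82 ± 0.65 in Abi_Ctrl (SD, n = 3 each). The log2 difference was 4.73 ± 0.50 (SE), 26.5-fold on the deposited scale, with a limma adjusted p of 0.00687 over all genes. In RNA from whole cultures, more cells with the transcript and more transcript per cell cannot be told apart. It had rank 2 among the 17687 differences, after SGK1, a kinase gene induced by glucocorticoids. With 11 arrays the SE was 0.41 and the adjusted p 5.08e-05. With all 12 arrays entered less any 1 of Abi_Ctrl replicate 1, Abi_Ctrl replicate 2 or Abi_Dex replicate 2, KLK4 missed the threshold (limma adjusted p = 0.0673, 0.0722 and 0.0684). With Enza_Ctrl replicate 2 left out together with each other array in turn, a check chosen after seeing the data, it passed in 11 of 11 fits (largest limma adjusted p 0.00175).

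KLK2 read 6.24, 6.18 and 6.87 in Abi_Dex, against 3.93, 4.77 and 5.32 in Abi_Ctrl. The groups do not overlap, and the DMSO arrays straddle the mean of the background rows. This gave a log2 difference of 1.76 ± 0.43 (SE; 0.37 with 11 arrays), and it did not pass over all genes (limma adjusted p = 1.00 with 12 arrays and 0.120 with 11). With the DMSO group this close to background, the size of the difference is uncertain and no fold is given.

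KLK3 read 7.88, 8.09 and 9.88 in Abi_Dex, against 7.08, 6.81 and 6.68 in Abi_Ctrl. The groups do not overlap, with replicate 3 of Abi_Dex standing well above the other treated arrays. The log2 difference was 1.76 ± 0.63 (SE; 0.42 with 11 arrays), 3.39-fold, with a limma adjusted p of 1.00 with 12 arrays and 0.247 with 11. Without Abi_Dex replicate 3 the difference was 1.13. Among all differences KLK3 had rank 18.

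Of the 10 kallikreins, 1 was called at an adjusted p under 0.05, against 0.0283% of all genes with 12 arrays and 0.141% with 11. Values higher in every treated array were found for 3 of 10, against 6.26% of all genes. The median difference over the 10 was 0.04, against 0.00 over all genes, and 5 of 10 were positive, against 50.4% of genes. The largest values were those of KLK4, KLK3 and KLK2, and the median kallikrein lay close to the median gene.

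KLK15, which can activate the KLK3 precursor in vitro, read 9.67, 9.52 and 9.73 in Abi_Dex, against 9.64, 9.86 and 9.52 in Abi_Ctrl. The groups overlap closely, at a difference of -0.03 ± 0.38 (SE; 0.20 with 11 arrays, with a 95% interval of -0.47 to 0.41). KLK5 and KLK14, proteases of skin shedding, differed by 0.11 and -0.04. KLK6, a protease best known from the nervous system, differed by 0.25, KLK10 by -0.20 and KLK11 by -0.17. KLK1, which releases kinins from kininogen, differed by -0.23. On the 11 arrays KLK1, KLK6 and KLK10 were never above 4.28, below the mean of the background rows on every array, so little can be read from their differences. The comparison genes KLK7, KLK8, KLK9, KLK12 and KLK13 lay between -0.28 and 0.35, and none of them was called.

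**Figure D2:**
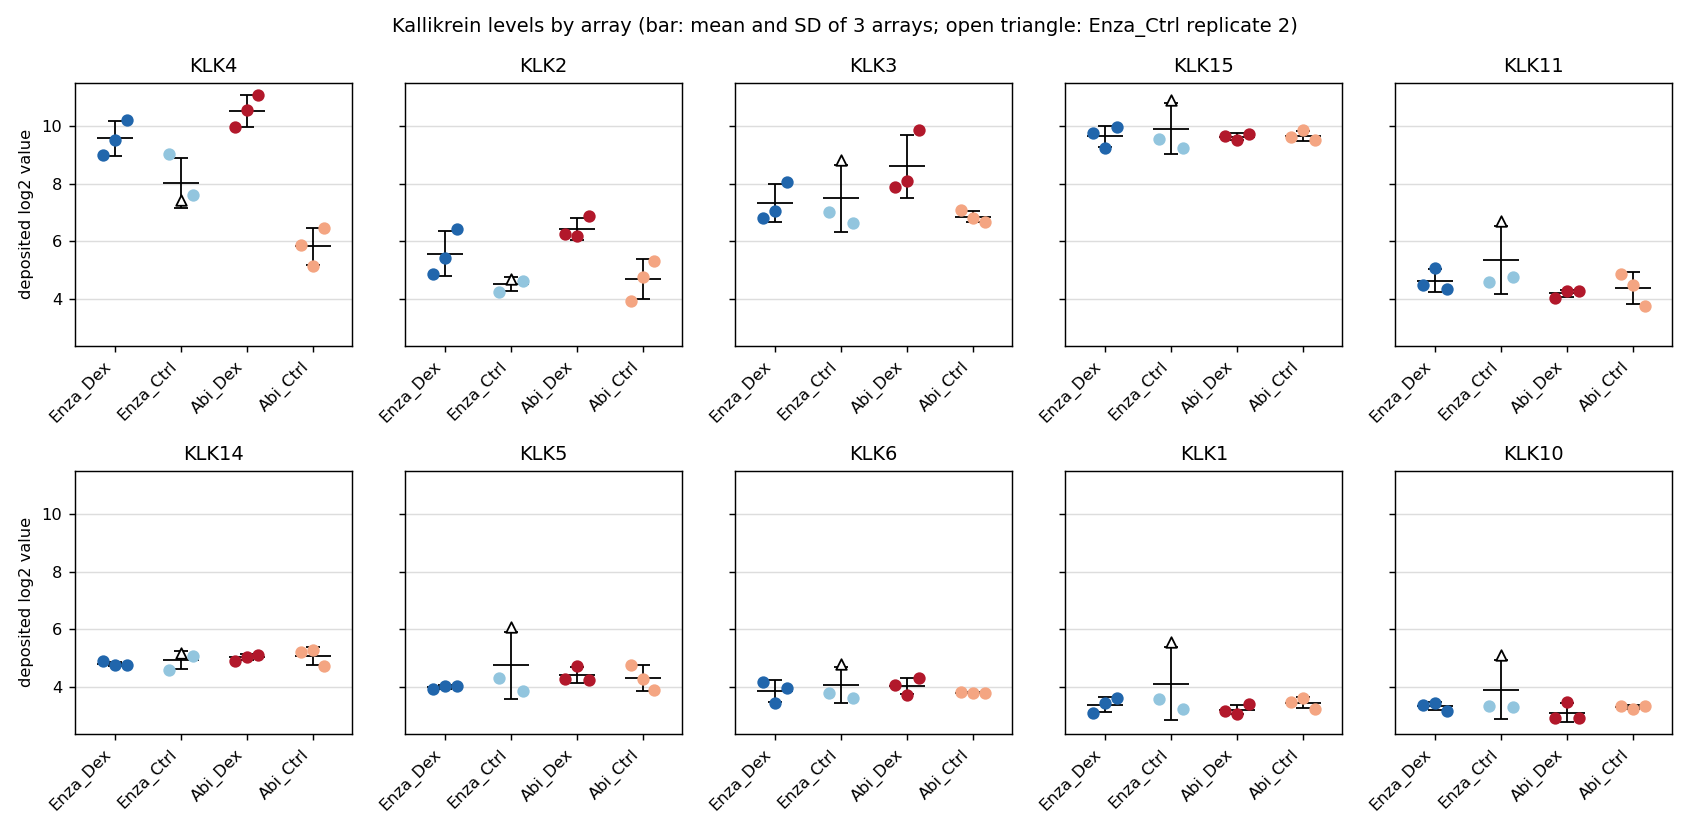
Deposited log2 value (vertical axis) of each kallikrein on every array by group, 1 panel per gene, with the mean and SD of 3 arrays as bars and Enza_Ctrl replicate 2 as an open triangle. KLK4, KLK2 and KLK3 are higher in Abi_Dex than in Abi_Ctrl on every array, and the triangle is the highest point for KLK1, KLK5, KLK6, KLK10, KLK11 and KLK15.

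In LNCaPabl-Enza no kallikrein was called after dexamethasone. KLK2 alone had higher values in every treated array, a count close to the share over all genes. KLK4 had the largest positive difference with overlapping groups, and KLK3 changed sign with Enza_Ctrl replicate 2. Over all genes, limma called 0% with 12 arrays, where 700 genes had an unadjusted p under 0.05, and 0% with 11, where 530 did.

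KLK4 read 9.01, 9.52 and 10.22 in Enza_Dex, against 9.04, 7.43 and 7.62 in Enza_Ctrl. Replicate 1 of Enza_Ctrl was as high as replicate 1 of Enza_Dex, so the groups overlap by a narrow margin. Its log2 difference was 1.55 ± 0.50 (SE; limma adjusted p = 0.523), or 1.25 ± 0.46 with 11 arrays (limma adjusted p = 1.00), which has rank 6 among the 17687 differences.

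KLK2 read 4.87, 5.40 and 6.41 in Enza_Dex, against 4.23, 4.69 and 4.61 in Enza_Ctrl. The groups do not overlap, though the lowest treated array is close to the DMSO arrays, which again lie near background. The log2 difference was 1.05 ± 0.43 (SE; limma adjusted p = 0.523), or 1.14 ± 0.42 with 11 arrays (limma adjusted p = 1.00). KLK2 was the 1 kallikrein of 10 higher in every treated array, against 3.96% of genes with 12 arrays and 7.93% with 11. That count is close to the share over all genes. Without Enza_Dex replicate 3 its difference was 0.63.

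KLK3 read 6.82, 7.06 and 8.06 in Enza_Dex, against 7.03, 8.83 and 6.63 in Enza_Ctrl. The groups overlap, and the highest of the 6 arrays is the one that stood apart. On the log2 scale the difference was -0.18 ± 0.63 (SE; limma adjusted p = 0.870), and 0.49 ± 0.47 with 11 arrays (limma adjusted p = 1.00).

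The other 7 kallikreins lay between -0.76 and -0.14 with 12 arrays and between -0.10 and 0.24 with 11. With 12 arrays KLK5 (-0.76), KLK1 (-0.73), KLK11 (-0.72) and KLK10 (-0.58) were the lowest, followed by KLK15 (-0.26), KLK6 (-0.21) and KLK14 (-0.14). With 11 arrays KLK15 (0.24) and KLK6 (0.15) were the highest, and KLK10 (0.019), KLK1 (-0.0064), KLK14 (-0.032), KLK11 (-0.047) and KLK5 (-0.10) lay close to 0. Thus 2 of 10 kallikreins were positive with 12 arrays and 6 of 10 with 11, against 54.0% and 51.0% of all genes. The median over the 10 was -0.24 with 12 arrays and 0.09 with 11, against 0.06 and 0.00 over all genes. The low values of these 7 genes with 12 arrays were thus not seen once Enza_Ctrl replicate 2 was left out.

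In both lines replicate 3 was the treated array with the highest value of KLK2, KLK3 and KLK4. In Enza_Dex, SGK1 moved in the same way, at 9.66, 9.99 and 13.20 in replicates 1, 2 and 3, against 6.13, 6.17 and 6.89 in Enza_Ctrl. NR3C1, which encodes the glucocorticoid receptor, read 6.72, 6.38 and 9.03 in Enza_Dex, against 6.51, 7.43 and 10.37 in Enza_Ctrl, with replicate 3 highest in both groups. In LNCaPabl-Abi, NR3C1 read 9.44, 9.99 and 10.16 with dexamethasone, against 11.14, 11.30 and 11.49 with DMSO, and SGK1 read 13.59, 13.29 and 13.83, against 6.52, 6.20 and 5.82. The receptor gene was higher in every LNCaPabl-Abi array than in the LNCaPabl-Enza arrays of the same treatment, and replicate 3 of LNCaPabl-Enza lay nearest to LNCaPabl-Abi. The part of these levels in the kallikrein values was not tested.

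**Figure D3:**
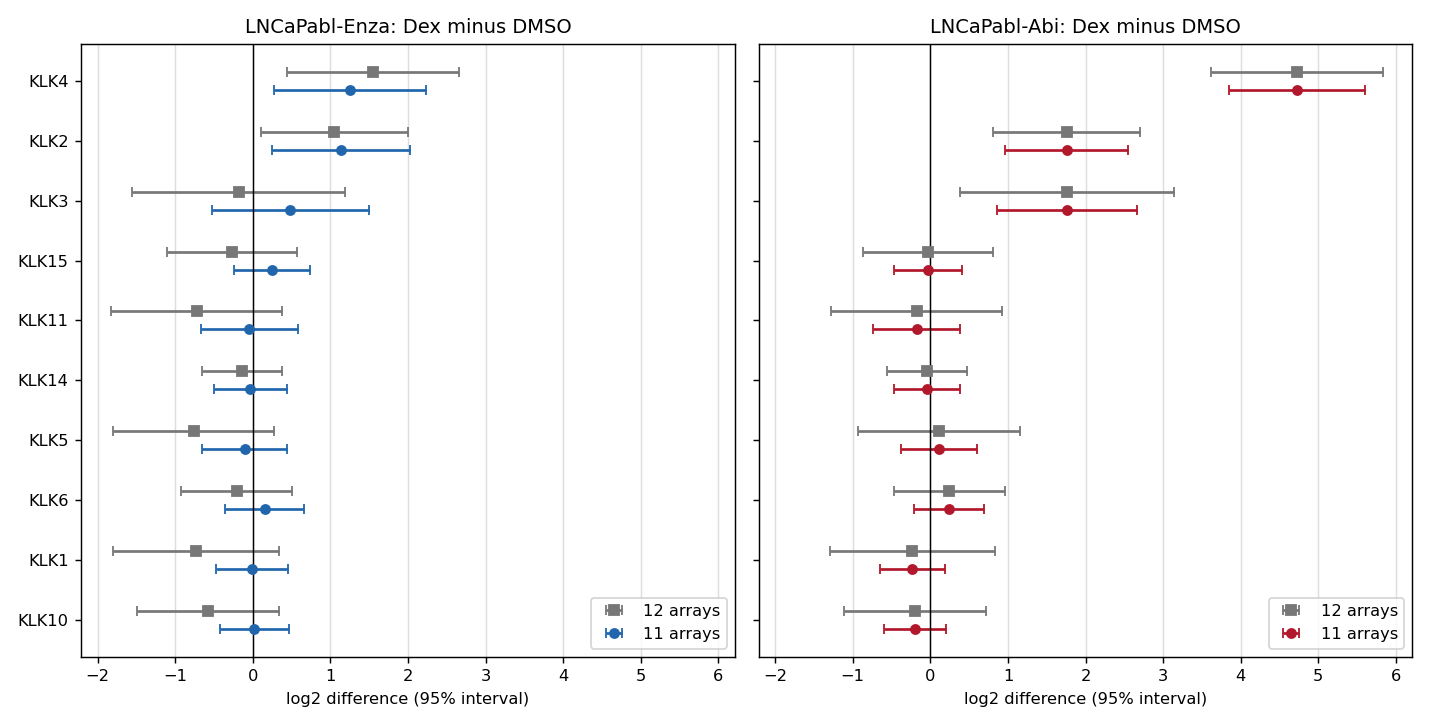
Log2 difference of dexamethasone against DMSO for each kallikrein (horizontal axis, with 95% limma intervals), in LNCaPabl-Enza (left) and LNCaPabl-Abi (right), with 12 arrays as squares and 11 arrays as circles. KLK4 in LNCaPabl-Abi stands at 4.73, and the circles of the dimmer kallikreins in LNCaPabl-Enza lie closer to 0 than the squares.

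Whether dexamethasone acted unequally on the lines was tested as the response of LNCaPabl-Enza minus that of LNCaPabl-Abi. KLK4 had a response lower by 3.18 on the log2 scale in LNCaPabl-Enza (difference -3.18 ± 0.71, SE, limma adjusted p = 0.793), or -3.47 ± 0.62 with 11 arrays (limma adjusted p = 0.434, 95% interval -4.79 to -2.16). With 11 arrays it was the lowest of all 17687 values, and with 12 it had rank 2 from the bottom. It did not pass over all genes. KLK3 stood at -1.94 ± 0.89 (SE), or -1.28 ± 0.63 with 11 arrays, and KLK2 at -0.71 ± 0.61, or -0.62 ± 0.56. The others ran, with 12 arrays, from KLK5 (-0.87), KLK11 (-0.55), KLK1 (-0.50), KLK6 (-0.45) and KLK10 (-0.38) to KLK15 (-0.23) and KLK14 (-0.10). With 11 arrays KLK15 (0.27), KLK1 (0.23), KLK10 (0.22), KLK11 (0.13) and KLK14 (0.0094) were positive, and KLK6 (-0.092) and KLK5 (-0.21) negative.

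Over all genes, limma called 0% here with 12 arrays and 0% with 11. At an unadjusted p under 0.05 there were 266 and 566 genes. None of the 10 kallikreins passed, and KLK4 was the 1 member at an unadjusted p under 0.05 in both. With 12 arrays 0 of 10 values were positive, and with 11 arrays 5 of 10 were, so the shared direction with 12 arrays depends on Enza_Ctrl replicate 2.

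Between the untreated lines KLK4 passed the test with 11 arrays and not with 12. The 3 values of Enza_Ctrl given above (7.43 to 9.04) all exceeded the 3 of Abi_Ctrl (5.14 to 6.44), with means of 8.03 ± 0.88 in Enza_Ctrl and 5.82 ± 0.65 in Abi_Ctrl (SD, n = 3 each). The log2 difference was 2.21 ± 0.50 (SE; limma adjusted p = 0.135) and did not pass. With 11 arrays it was 2.51 ± 0.46, 5.70-fold, and passed (limma adjusted p = 0.0118). When a further array was left out, the call was kept in 9 of 11 fits and was lost without Abi_Ctrl replicate 2 (2.17, limma adjusted p = 0.0641) and without Enza_Ctrl replicate 1 (1.80, limma adjusted p = 0.262). This comparison and the responses to dexamethasone use the same DMSO arrays, so the KLK4 results are not independent.

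Of the 10 kallikreins, 0 were called between the untreated lines with 12 arrays, against 0.266% of all genes, and 1 with 11, against 1.29%. KLK4 was the 1 kallikrein of 10 whose Enza_Ctrl arrays all exceeded those of Abi_Ctrl, against 5.95% of genes with 12 arrays and 11.5% with 11. This count is close to the share over all genes. KLK2 and KLK3 stood at -0.16 ± 0.43 and 0.64 ± 0.63 (SE), or -0.25 ± 0.42 and -0.02 ± 0.47 with 11 arrays. The other 7 lay between -0.12 and 0.99 with 12 arrays and between -0.27 and 0.31 with 11. With 12 arrays they were KLK11 (0.99), KLK1 (0.67), KLK10 (0.60), KLK5 (0.45), KLK6 (0.28), KLK15 (0.24) and KLK14 (-0.12). With 11 arrays KLK11 stayed the highest (0.31), followed by KLK10 (0.0029), KLK1 (-0.053), KLK6 (-0.085), KLK5 (-0.21), KLK14 (-0.23) and KLK15 (-0.27).

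Between the treated lines KLK4 had its lower mean in LNCaPabl-Enza. The mean was 9.58 ± 0.61 in Enza_Dex and 10.54 ± 0.56 in Abi_Dex (SD, n = 3 each), with overlapping arrays, and the difference of -0.96 ± 0.50 (SE; 0.41 with 11 arrays) did not pass (limma adjusted p = 1.00 and 0.362). KLK3 averaged 7.32 ± 0.66 in Enza_Dex and 8.62 ± 1.10 in Abi_Dex (SD, n = 3 each), a difference of -1.30 ± 0.63 (SE; limma adjusted p = 1.00, or 0.167 with 11 arrays). KLK2 averaged 5.56 ± 0.78 in Enza_Dex and 6.43 ± 0.38 in Abi_Dex (SD, n = 3 each), a difference of -0.87 ± 0.43 (SE; limma adjusted p = 1.00, or 0.366 with 11 arrays).

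None of the 10 kallikreins was called between the treated lines, against 0.277% of all genes with 12 arrays and 2.28% with 11. KLK11 was higher in every Enza_Dex array than in any Abi_Dex array (0.44 ± 0.50, SE), against 9.43% of genes. KLK5 (-0.43 ± 0.47) and KLK14 (-0.22 ± 0.23) were lower in every Enza_Dex array, against 10.7% of genes. These 3 genes lie near the level of the background rows, and shares of this size are close to the background. KLK10 stood at 0.22, KLK1 at 0.17, KLK15 at 0.0076 and KLK6 at -0.18.

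For KLK4 the group means thus ran, low to high, Abi_Ctrl, Enza_Ctrl, Enza_Dex and Abi_Dex. Of the neighbours in that order, Enza_Ctrl and Abi_Ctrl passed the test with 11 arrays, and neither Enza_Dex and Enza_Ctrl nor Enza_Dex and Abi_Dex passed it. For KLK2 and KLK3 the highest mean was that of Abi_Dex, and without Enza_Ctrl replicate 2 the 2 DMSO groups were the lowest, with means of 4.42 in Enza_Ctrl and 4.67 in Abi_Ctrl for KLK2 and of 6.83 in Enza_Ctrl and 6.86 in Abi_Ctrl for KLK3.

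**Figure D4:**
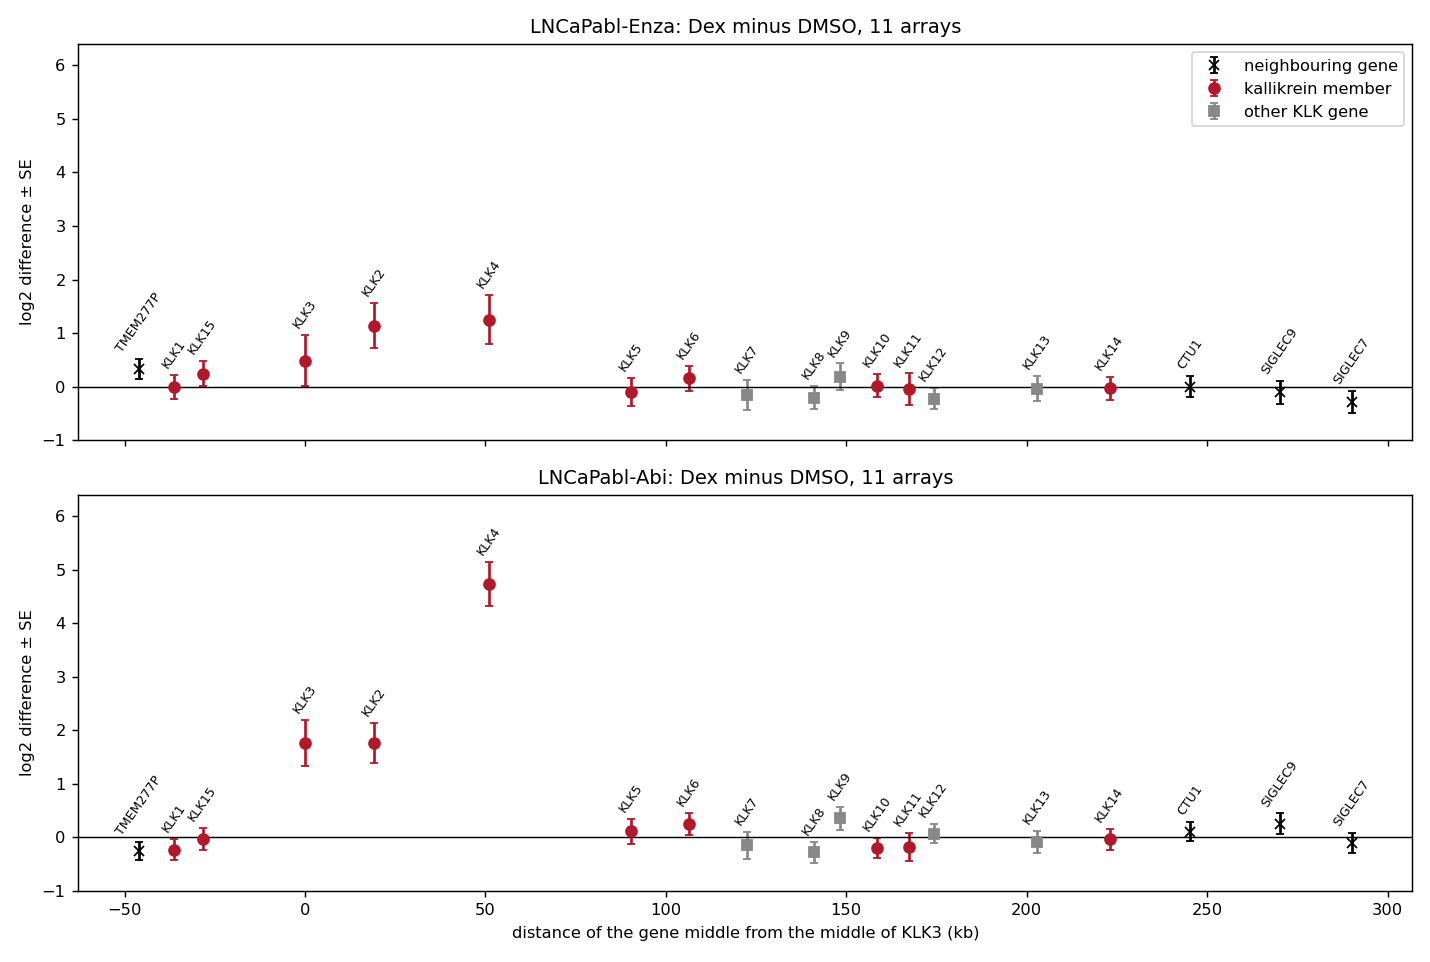
Log2 difference ± SE of dexamethasone against DMSO with 11 arrays (vertical axis) for each gene of the cluster and its neighbours with a named row, placed by the distance of the gene's middle from that of KLK3 in kb, in LNCaPabl-Enza (top) and LNCaPabl-Abi (bottom). KLK3, KLK2 and KLK4 stand side by side with the largest differences in LNCaPabl-Abi, and the genes on either side lie near 0.

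Along the chromosome, the genes with large differences were adjacent. KLK2 lies 19.2 kb and KLK4 51.0 kb from KLK3, measured between the gene middles. KLK15, at -28.4 kb on one side, and KLK5, at 90.3 kb on the other, had differences of -0.03 and 0.11 in LNCaPabl-Abi. Of 14 neighbouring genes that are no KLK gene, 4 had a named row (TMEM277P, CTU1, SIGLEC9 and SIGLEC7), and with 11 arrays their differences lay between -0.26 and 0.25 in LNCaPabl-Abi with none called. The pseudogene KLKP1, between KLK2 and KLK4, was not analysed here.

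The genes most like each of the 3 were taken by Pearson correlation of the deposited values over the 11 arrays, which share 2 lines and 1 treatment, as a description. For KLK4 they were TMPRSS2 (r = 0.957), ABHD2 (0.955), CMC2 (0.939), NPC1 (0.938) and TUBA3D (0.923). With 12 arrays TMPRSS2 stayed at 0.938, ABHD2 at 0.932 and TUBA3D at 0.901, and CMC2 dropped to 0.529 and NPC1 to 0.576. TMPRSS2 encodes a membrane serine protease of luminal prostate cells that is induced by androgens. It read 13.42, 13.23 and 13.60 in Abi_Dex, against 11.25, 11.03 and 11.41 in Abi_Ctrl, and 12.56, 12.64 and 12.79 in Enza_Dex, against 12.13, 11.10 and 11.53 in Enza_Ctrl.

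For KLK2 they were LCP1 (r = 0.961), STK39 (0.942), MPEG1 (0.940), NANOS3 (0.913) and CHKA (0.909), and for KLK3 they were CST4 (0.966), SAP30BP (0.918), ERN1 (0.918), ZNF706 (0.917) and LATS2 (0.917). With 12 arrays MPEG1 stood at -0.03, NANOS3 at 0.17, SAP30BP at -0.20 and LATS2 at 0.33, so these likenesses depend on the array that stood apart. LCP1 stood at 0.76, CHKA at 0.80, CST4 at 0.83 and ZNF706 at 0.71, while STK39 kept 0.939 and ERN1 0.928. Group means over the 11 arrays were 2.69 to 3.66 for CST4, 3.16 to 3.52 for NANOS3 and 3.85 to 4.12 for MPEG1. These lie below the mean of the background rows (4.50 to 4.60 on the 11 arrays), so little can be read from their r. Among the 3 kallikreins themselves, r over 11 arrays was 0.805 for KLK2 and KLK3, 0.738 for KLK2 and KLK4 and 0.704 for KLK3 and KLK4. By r over 11 arrays, KLK3 had rank 72 and KLK4 rank 168 for KLK2, and KLK2 rank 43 and KLK4 rank 211 for KLK3. For KLK4, KLK2 had rank 195 and KLK3 rank 319. With so many genes compared, some outside the cluster were likely to stand higher, so these ranks are a description only.

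Other genes tied to kallikreins were read from lists chosen with earlier results of these data known. Of 25 androgen-induced genes outside the family, 17 were measured, and 13 were positive for dexamethasone in LNCaPabl-Abi, against 50.4% of all genes, with a median of 0.28. Of the 17, 1 was called with 12 arrays, against 0.0283% of all genes, and 3 with 11, against 0.141%. TMPRSS2 was called at 2.19 ± 0.27 (SE; limma adjusted p = 0.0167, or 6.55e-05 with 11 arrays). With 11 arrays, RHOU, a small GTPase gene, at 1.89 ± 0.30 (SE; limma adjusted p = 0.0163) and HOMER2, a scaffold protein gene, at 1.13 ± 0.19 (SE; limma adjusted p = 0.0255) were called as well, which with 12 arrays they were not (limma adjusted p = 0.512 and 1.00). In LNCaPabl-Enza 14 of 17 were positive with 12 and with 11 arrays, against 54.0% and 51.0% of all genes, and 0 were called by limma, with 4 of them (TMPRSS2, RHOU, HOMER2 and SPOCK1) at an unadjusted p under 0.05 with 11 arrays. There TMPRSS2 stood at 1.08 ± 0.27 (SE), RHOU at 1.12 ± 0.37 and HOMER2 at 0.20 ± 0.35 with 12 arrays, and at 0.83 ± 0.22, 0.89 ± 0.34 and 0.66 ± 0.22 in that order with 11.

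A list of protease inhibitors that can bind kallikreins (14 of 15 measured) also held SERPINB5, a serpin not known to inhibit them. This list and the kallikrein substrates and cut receptors (17 of 20 measured) gave 0 calls by limma for dexamethasone in either line. With 11 arrays 1 gene of the inhibitor list in each line was at an unadjusted p under 0.05, and 0 substrates or receptors were. They were SERPINB5 in LNCaPabl-Abi (-0.46 ± 0.19, SE) and SERPINE2 in LNCaPabl-Enza (0.70 ± 0.29, SE). With 12 arrays SERPINE2 stood at -0.34 ± 0.68 (SE) in LNCaPabl-Enza, with the sign turned. Differences were instead found between the untreated lines. With 11 arrays SERPINE2 (-2.37 ± 0.29, SE, limma adjusted p = 0.00045) and SERPINB5 (-1.28 ± 0.22, SE, limma adjusted p = 0.00681) were lower in Enza_Ctrl than in Abi_Ctrl. They are 2 of the 14 measured genes of the inhibitor list, against 1.29% of all genes called. These calls were all toward lower values in Enza_Ctrl, as were 169 of the 228 calls over all genes. Of the 17 substrates and receptors, 2 insulin-like growth factor binding proteins that kallikreins can cut were also lower there. They were IGFBP3 (-4.87 ± 0.94, SE, limma adjusted p = 0.0170) and IGFBP2 (-1.97 ± 0.40, SE, limma adjusted p = 0.0242). With 12 arrays none of the 4 passed (limma adjusted p = 0.432, 0.858, 0.0726 and 0.0823).

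Between the treated lines, SERPINE2 at -1.87 ± 0.26 (SE; limma adjusted p = 0.00083), IGFBP3 at -4.73 ± 0.84 (SE; limma adjusted p = 0.00605) and IGFBP2 at -2.47 ± 0.36 (SE; limma adjusted p = 0.00138) were also called with 11 arrays, where 2.28% of all genes were. RHOU at -1.30 ± 0.30 (SE; limma adjusted p = 0.0373) and STEAP1 at -0.74 ± 0.18 (SE; limma adjusted p = 0.0498) were called there among the 17 androgen-induced genes. With 12 arrays none of these 5 passed (limma adjusted p = 0.841, 0.190, 0.0525, 0.409 and 0.442).

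Of a list of other prostate genes, 11 of 12 were measured. The list holds secretory products, but also SPDEF, a transcription factor gene, and FOLH1 and TMEFF2, genes of membrane proteins. PGC, the precursor of pepsin C, rose in LNCaPabl-Abi by 4.57 ± 0.55 (SE, limma adjusted p = 0.0167, or 0.000393 with 11 arrays). PGC was the 1 of 11 called, against 0.0283% of all genes with 12 arrays and 0.141% with 11. It averaged 4.39 in Abi_Ctrl, below the background rows of those arrays, so the size of this difference is uncertain. The others lay on both sides of 0, with a list median of -0.06. PGC stood at 1.29 ± 0.55 (SE; limma adjusted p = 0.523) in LNCaPabl-Enza, or 1.37 ± 0.54 with 11 arrays (limma adjusted p = 1.00). Between the treated lines it was called with 11 arrays at -2.63 ± 0.48 (SE, limma adjusted p = 0.00721), where 2.28% of all genes were, and not with 12 (limma adjusted p = 0.112).

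Of the steroid receptor genes, 5 of 6 listed were measured and 0 were called for dexamethasone in either line by limma, with none at an unadjusted p under 0.05. NR3C1 stood at -1.45 ± 0.88 (SE; limma adjusted p = 1.00, or 0.724 with 11 arrays) in LNCaPabl-Abi. There its treated arrays all lay below its DMSO arrays, as did those of 1063 of 17687 genes. In LNCaPabl-Enza it was -0.73 ± 0.88 (SE; limma adjusted p = 0.638), or -1.06 ± 0.84 with 11 arrays (limma adjusted p = 1.00). Between the untreated lines it was -3.20 ± 0.88 (SE; limma adjusted p = 0.261), or -2.87 ± 0.84 with 11 arrays (limma adjusted p = 0.140). Luminal transcription factors and coactivators (7 of 10 measured) gave 0 calls by limma in either line, with 1 gene, GRHL2, at an unadjusted p under 0.05 in LNCaPabl-Abi (0.48 ± 0.21, SE) and none in LNCaPabl-Enza.

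Of the genes used to check that the glucocorticoid acted, 8 of 10 were measured. SGK1 rose in LNCaPabl-Abi by 7.39 ± 0.73 (SE; limma adjusted p = 0.00461, or 5.08e-05 with 11 arrays), and 7 of 8 were positive. In LNCaPabl-Enza SGK1 stood at 4.55 ± 0.73 (SE; limma adjusted p = 0.523), or 4.43 ± 0.70 with 11 arrays (limma adjusted p = 0.269), with rank 1 among all differences, and 6 of 8 were positive, or 8 of 8 with 11 arrays. Between the treated lines, SGK1 (-2.62 ± 0.63, SE, limma adjusted p = 0.0416) and ERRFI1 (-1.14 ± 0.27, SE, limma adjusted p = 0.0376) were lower in Enza_Dex than in Abi_Dex with 11 arrays, and with 12 neither passed (limma adjusted p = 0.356 and 0.422).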

How the data were processed

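Biotin-labelled target made from 150 ng of total RNA was hybridised to single-colour Affymetrix arrays, per the labels' protocols. The authors deposited a log2 value for each transcript cluster on each array. RMA, Affymetrix Expression Console and limma are named, with no version, in the submitters' processing notes. Values reached from 1.66 to 18.6, a wide range for RMA alone, so folds are on the deposited scale and may exceed the change in RNA. The number of arrays limits precision.

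Of 24351 rows, 17709 had 1 symbol in the platform's annotation, none had several and 6642 had none here. The brightest row per symbol was kept (20 genes had several), leaving 17687 genes. Promoter sequences and gene positions came from RefSeq tables for GRCh38.p14.

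Groups and replicate numbers came from the sample titles. Tests between groups used limma 3.58.1 under R 4.3.3 (lmFit, eBayes, 4 group means, no dim-gene filter, no replicate block), with Benjamini-Hochberg adjustment over all genes and calls at an adjusted p under 0.05. The code was tested on simulated data.

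The kallikreins, the gene lists, and the tests were chosen with earlier results of these data known. The rule for named genes took all 10 kallikreins in every comparison, NR3C1 and SGK1, called genes of other lists (up to 5 per list; where none was called, it allowed the member with the smallest p) and the 5 genes most like KLK2, KLK3 and KLK4 each. Members of short counts at an unadjusted p under 0.05 were named after their values were seen. A steroid receptor and a glucocorticoid target of the lists are not analysed here. Alternatives were quantile normalization, omission of dim genes, only the groups compared, a replicate block, robust eBayes with a trend, array weights, the mean of all rows of a symbol, and omission of each array.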

Additional observations from a re-analysis of the deposited data

How the results depend on the processing

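KLK4 in LNCaPabl-Abi and KLK4 between the untreated lines kept their direction under every alternative run. KLK4 in LNCaPabl-Abi kept its call except without Abi_Ctrl replicate 1, Abi_Ctrl replicate 2 or Abi_Dex replicate 2, and KLK4 between the untreated lines was also called with array weights (2.43, limma adjusted p = 0.0071) and with the replicate block and 11 arrays (2.39, limma adjusted p = 0.0171). The kallikrein values that turned numbered 14 with array weights, 14 without Enza_Ctrl replicate 2, 13 with the replicate block and 11 arrays and 4 with quantile normalization anew. With any other single array left out they numbered 0 to 3. The array weight of Enza_Ctrl replicate 2 was 0.032. The cause of the turned values was not tested. Omission of dim genes also removed 3 kallikreins. The mean of all rows of a symbol gave identical levels, since each kallikrein has 1 row.

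Replicate numbers were not taken to pair the arrays. The correlation of same-numbered arrays' deviations was 0.137, 0.083 and 0.303 in LNCaPabl-Abi and 0.014, 0.004 and 0.082 in LNCaPabl-Enza, and not every array correlated best with its own number. Arrays of different numbers gave -0.196 to 0.098 in LNCaPabl-Abi and -0.065 to 0.056 in LNCaPabl-Enza. The group means behind the LNCaPabl-Enza deviations included Enza_Ctrl replicate 2. The check was not run without that array, so it cannot decide whether the LNCaPabl-Enza arrays were paired. With the replicate block and 12 arrays, KLK4 in LNCaPabl-Abi stayed at 4.73 (limma adjusted p = 0.0248).

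Genes called in LNCaPabl-Abi, 5 with 12 arrays, numbered 22 with only the groups compared, 39 with the replicate block and 11 arrays, 37 with array weights, and 0 to 25 with 1 array left out. Kallikreins called there, 1 with 12 arrays, numbered 2 with the replicate block and 11 arrays, where KLK2 was added (limma adjusted p = 0.00532), and 0 to 1 with 1 array left out. Genes called in LNCaPabl-Enza numbered 0 to 1 with 1 array left out, and for the difference between the responses 1 with the replicate block and 11 arrays. Genes called between the untreated lines, 47 with 12 arrays, numbered 0 with only the groups compared, 303 with the replicate block and 11 arrays, 252 with array weights and 11 to 228 with 1 array left out. Kallikreins called there, 0 with 12 arrays, numbered 1 with the replicate block and 11 arrays, 1 with array weights and 0 to 1 with 1 array left out. Genes called between the treated lines, 49 with 12 arrays, numbered 502 with only the groups compared, 540 with the replicate block and 11 arrays, 767 with array weights and 12 to 403 with 1 array left out.

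With array weights, the log2 differences that turned in the LNCaPabl-Enza response were KLK3 0.37, KLK6 0.16, KLK10 0.0064, KLK14 0.0018 and KLK15 0.21. In the difference between the responses KLK1 0.14, KLK10 0.20, KLK11 0.14, KLK14 0.025 and KLK15 0.21 turned. In the untreated lines KLK3 -0.011, KLK5 -0.22, KLK6 -0.067 and KLK15 -0.19 turned. With the replicate block and 11 arrays, those that turned in the LNCaPabl-Enza response were KLK3 0.62, KLK6 0.28 and KLK15 0.30, in the difference between the responses KLK1 0.21, KLK6 0.03, KLK10 0.15, KLK11 0.017 and KLK15 0.33, and in the untreated lines KLK1 -0.039, KLK3 -0.16, KLK5 -0.16, KLK6 -0.21 and KLK15 -0.33. With quantile normalization anew, KLK6 0.11 and KLK14 0.17 turned in the LNCaPabl-Enza response, KLK14 0.25 in the difference between the responses and KLK6 -0.037 in the untreated lines.

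With 1 array left out, some log2 differences crossed 0. In the LNCaPabl-Enza response the range was -0.62 to 0.49 for KLK3, -0.43 to 0.15 for KLK6, -0.89 to 0.019 for KLK10 and -0.59 to 0.24 for KLK15. In the LNCaPabl-Abi response it was -0.48 to 0.071 for KLK11, -0.22 to 0.068 for KLK14, -0.11 to 0.062 for KLK15 and -0.10 to 0.34 for KLK5. In the difference between the responses it was -0.28 to 0.077 for KLK14, -0.95 to 0.23 for KLK1, -0.69 to 0.22 for KLK10, -0.93 to 0.13 for KLK11 and -0.56 to 0.27 for KLK15. In the untreated lines it was -0.53 to 0.16 for KLK2, -0.30 to 0.058 for KLK14, -0.053 to 1.12 for KLK1, -0.024 to 1.08 for KLK3, -0.21 to 0.89 for KLK5, -0.085 to 0.50 for KLK6 and -0.27 to 0.57 for KLK15. In the treated lines it was -0.15 to 0.22 for KLK15 and -0.34 to 0.036 for KLK6.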
